A study of Mus musculus with 8 samples.

Results

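The 7 mouse genes Hsd3b6, Sod3, Mcpt8, Emb, Erv3, Plac1 and Prdm1, out of 19505 named genes on the array, were picked from these same data as genes that were low when the prostaglandin receptor EP4 was blocked, or when prostaglandin synthesis was inhibited with diclofenac, and high when prostaglandin E2 (PGE2) was added. Each was taken by its gene symbol, and all 7 had 1 transcript cluster, the set of probes that reports a gene. The contrasts with diclofenac, the EP4 antagonist and PGE2 therefore describe how the genes were chosen and carry no test. The arrays of cultures with a TGFb inhibitor or a Wnt inhibitor took no part in the choice.

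The cells were postnatal mouse tail-tip fibroblasts (TTFs) carrying retroviruses for GHMT, the cardiac transcription factors Gata4, Hand2, Mef2c and Tbx5, which turn fibroblasts towards a cardiomyocyte-like state. All 8 cultures were transduced, and none without the factors was among the samples. In TTF set 1 the cultures were GHMT alone, GHMT with diclofenac, GHMT with an EP4 antagonist, and GHMT with diclofenac plus PGE2. In TTF set 2 they were GHMT alone, GHMT with the EP4 antagonist, GHMT with a TGFb inhibitor, and GHMT with a Wnt inhibitor. Each culture gave 1 array, so GHMT and the EP4 antagonist had 2 arrays each, from different sets, and the other 4 groups had 1 each. The protocols name DMSO as an addition of its own, and the GHMT arrays are the cultures whose labels name no compound. Compounds were added together with the viruses. Which antagonist and inhibitors were used, their doses, the harvest time and a closer age than postnatal are not stated.

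PGE2 is made from arachidonic acid by the cyclooxygenases, which diclofenac inhibits, and by PGE synthases. EP4, encoded by Ptger4, couples to the stimulatory G protein, raises cyclic AMP and activates protein kinase A, which phosphorylates the transcription factor CREB. CREB binds the cyclic AMP response element. In fibroblasts this pathway is known for modulating inflammatory and matrix genes.

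Values are log2 expression values, so a difference of 1 is 2-fold. Each array carries 23 probe sets that measure background, and their 95th percentile, between 5.73 and 5.99, served as that array's background level. Where the lower of both arrays was at background, a fold is a lower bound against that level. The median value lay at 5.28 to 5.29 in arrays of set 1 and at 5.10 to 5.14 in arrays of set 2, and arrays correlated at 0.986 to 0.995 within a set and at 0.974 to 0.984 between sets, so differences were taken within a set. Of 9 measured fibroblast markers, all 9 were above background in every array. Of 13 markers of basophils and mast cells, 11 were at background in all 8 arrays, among them Fcer1a, Ms4a2, Cpa3 and Prss34, and the mean over all 13 ran from 4.00 to 4.39 between arrays. The other 2 were Il3ra, above background in all 8 arrays, and Mcpt4, above it in 6. All 5 endothelial, 5 keratinocyte and 4 steroid-making cell markers were at background in every array, as were both matched Schwann and neural markers. So were 5 of 6 leukocyte, 3 of 4 adipocyte and 3 of 5 skeletal muscle markers. The exceptions were Lyz2, above background in 1 array, Fabp4, in 4, and the muscle markers Ckm and Acta1, in all 8. Acta1 was highest with the EP4 antagonist of set 2, at 11.66 against 9.96 with GHMT. In such bulk RNA, fewer cells of a type and less RNA per cell cannot be told apart.

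As a yardstick for single arrays, the difference between EP4 antagonist and GHMT was compared between the sets over 10707 clusters above background. Its pooled standard deviation (SD) was 0.39 on the log2 scale. Gaps between arrays smaller than that are called unresolved here.

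**Figure D1:**
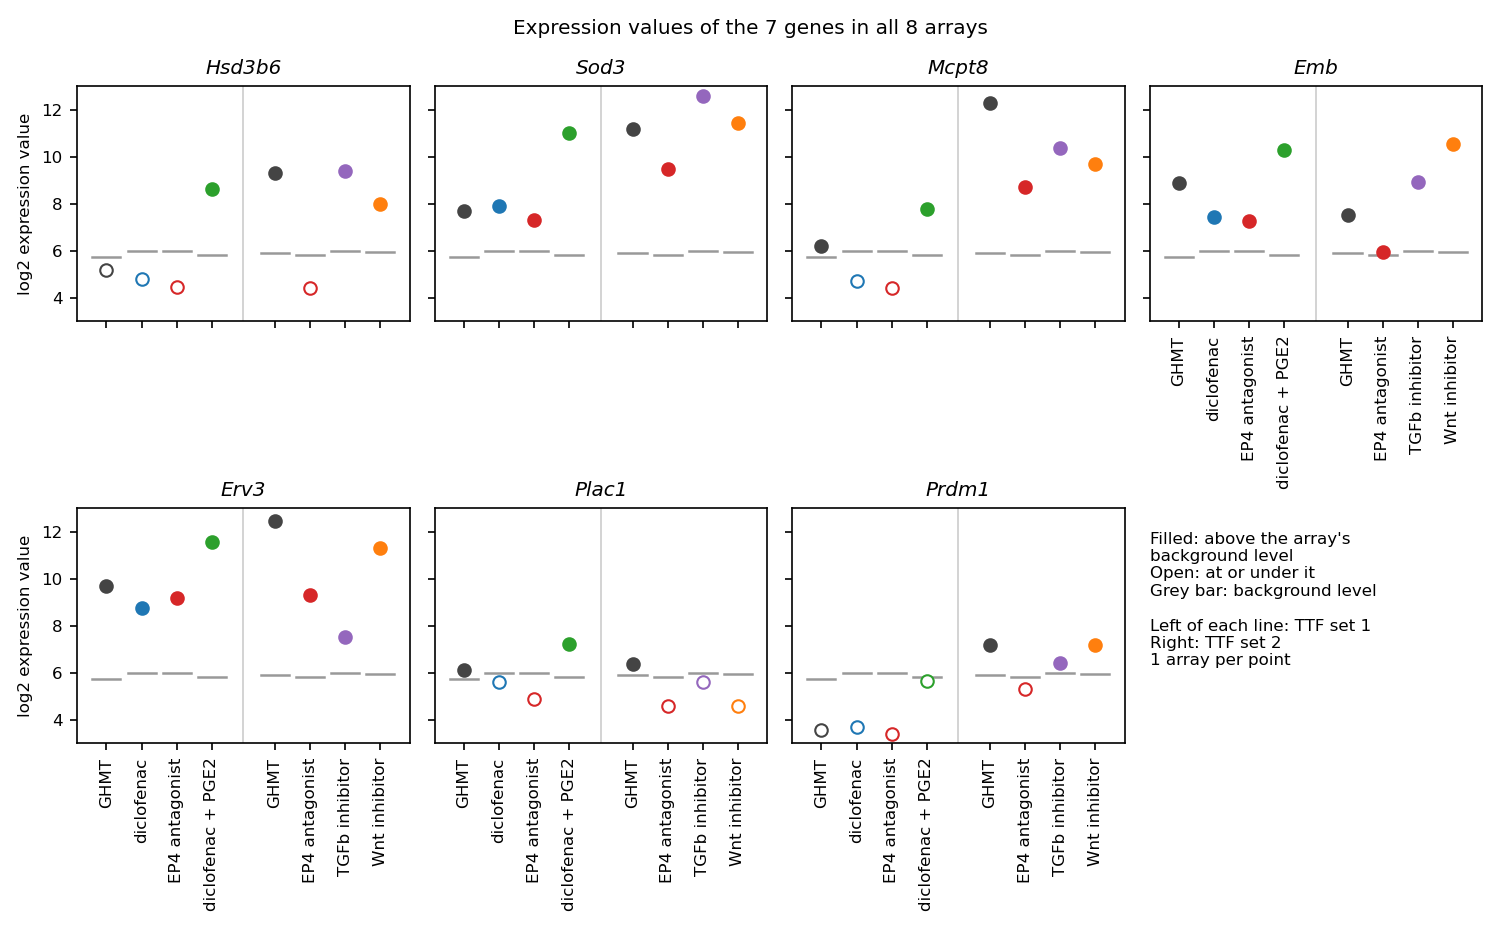
Log2 expression value (vertical axis) of each of the 7 genes in the 8 arrays, 1 point per array, with TTF set 1 left and TTF set 2 right of the line; filled points lie above the background level of the array (grey bar) and open points at or under it. In set 1 the array with diclofenac plus PGE2 is the highest for all 7 genes, and in both sets the EP4 antagonist array has the lowest value for 6 of 7, in part among open points, which have no order.

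The enzymes of the group are Hsd3b6, Sod3 and Mcpt8. Hsd3b6 is a hydroxysteroid dehydrogenase of steroid hormone synthesis. In set 1 it was at 5.17 with GHMT, 4.79 with diclofenac, 4.45 with the EP4 antagonist and 8.64 with diclofenac plus PGE2. In set 2 it was at 9.31 with GHMT, 4.42 with the EP4 antagonist, 9.40 with the TGFb inhibitor and 7.98 with the Wnt inhibitor. The gene was thus at background in 4 arrays, including GHMT of set 1, and well above it in the other 4. With PGE2 it was at least 6.26-fold above diclofenac and at least 7.52-fold above GHMT, and with the EP4 antagonist of set 2 it was at least 11.2-fold under GHMT. In set 1 no fall from GHMT could be measured, since GHMT itself was at background.

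Sod3 encodes the secreted superoxide dismutase of the extracellular matrix. It was above background in all 8 arrays, at 7.69 with GHMT, 7.90 with diclofenac, 7.28 with the EP4 antagonist and 11.00 with diclofenac plus PGE2 in set 1. In set 2 it was at 11.19 with GHMT, 9.48 with the EP4 antagonist, 12.58 with the TGFb inhibitor and 11.41 with the Wnt inhibitor. Diclofenac did not lower it: the difference of 0.21 from GHMT was positive and unresolved. The addition of PGE2 put it 8.57-fold above diclofenac and 9.92-fold above GHMT. The EP4 antagonist array was 1.33-fold under GHMT in set 1 and 3.27-fold under it in set 2.

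Mcpt8 encodes mast cell protease 8, a granule protease used as a basophil marker. Its set 1 levels were 6.19 with GHMT, 4.70 with diclofenac, 4.42 with the EP4 antagonist and 7.75 with diclofenac plus PGE2. Its set 2 levels were 12.26 with GHMT, 8.70 with the EP4 antagonist, 10.37 with the TGFb inhibitor and 9.69 with the Wnt inhibitor. All values of set 2 exceeded all values of set 1, and the diclofenac and EP4 antagonist arrays of set 1 were at background. In set 1 it was at least 1.15-fold lower with diclofenac and at least 1.16-fold lower with the EP4 antagonist than with GHMT, and with PGE2 it was 2.95-fold above GHMT. In set 2 the EP4 antagonist array was 11.8-fold under GHMT. Among the other basophil and mast cell markers, Fcer1a, Ms4a2, Cpa3 and Prss34 were at background in all of these arrays. Il3ra was above background in 8 arrays and Mcpt4 in 6.

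Emb encodes embigin, a cell surface glycoprotein of the immunoglobulin family that partners monocarboxylate transporters. Emb was at 8.87 with GHMT, 7.42 with diclofenac, 7.25 with the EP4 antagonist and 10.29 with diclofenac plus PGE2 in set 1. In TTF set 2, Emb was at 7.50 with GHMT, 5.95 with the EP4 antagonist, 8.90 with the TGFb inhibitor and 10.52 with the Wnt inhibitor. Its EP4 antagonist array differed from GHMT by -1.62 in set 1 and by -1.55 in set 2. Its EP4 antagonist array of set 2 lay just over the background level of 5.82.

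Erv3 is a gene derived from an endogenous retrovirus. Erv3 levels in set 1 were 9.68 with GHMT, 8.76 with diclofenac, 9.16 with the EP4 antagonist and 11.54 with diclofenac plus PGE2. Its levels in set 2 were 12.45 with GHMT, 9.32 with the EP4 antagonist, 7.51 with the TGFb inhibitor and 11.28 with the Wnt inhibitor. The EP4 antagonist arrays of the sets were 0.16 apart, which is unresolved, while the GHMT arrays were 2.77 apart. Its lowest array was diclofenac in set 1 and the TGFb inhibitor in set 2.

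Plac1, a gene of the placental trophoblast, had low values throughout. In set 1 it was at 6.12 with GHMT, 5.60 with diclofenac, 4.86 with the EP4 antagonist and 7.22 with diclofenac plus PGE2. In set 2 it was at 6.35 with GHMT, 4.56 with the EP4 antagonist, 5.62 with the TGFb inhibitor and 4.59 with the Wnt inhibitor. The GHMT arrays and the PGE2 array were above background and the other 5 were not. With PGE2 it was at least 2.34-fold above diclofenac and 2.14-fold above GHMT.

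Prdm1 encodes Blimp-1, a transcriptional repressor known from plasma cells and germ cells. In set 1 it was at 3.54 with GHMT, 3.69 with diclofenac, 3.37 with the EP4 antagonist and 5.65 with diclofenac plus PGE2, all 4 at background. In set 2 it was at 7.19 with GHMT, 5.31 with the EP4 antagonist, 6.39 with the TGFb inhibitor and 7.17 with the Wnt inhibitor. The set 1 differences of Prdm1 thus lie between arrays that do not show the gene above background, and no fold is given for them. In set 2 the EP4 antagonist array was at least 2.58-fold under GHMT.

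**Figure D2:**
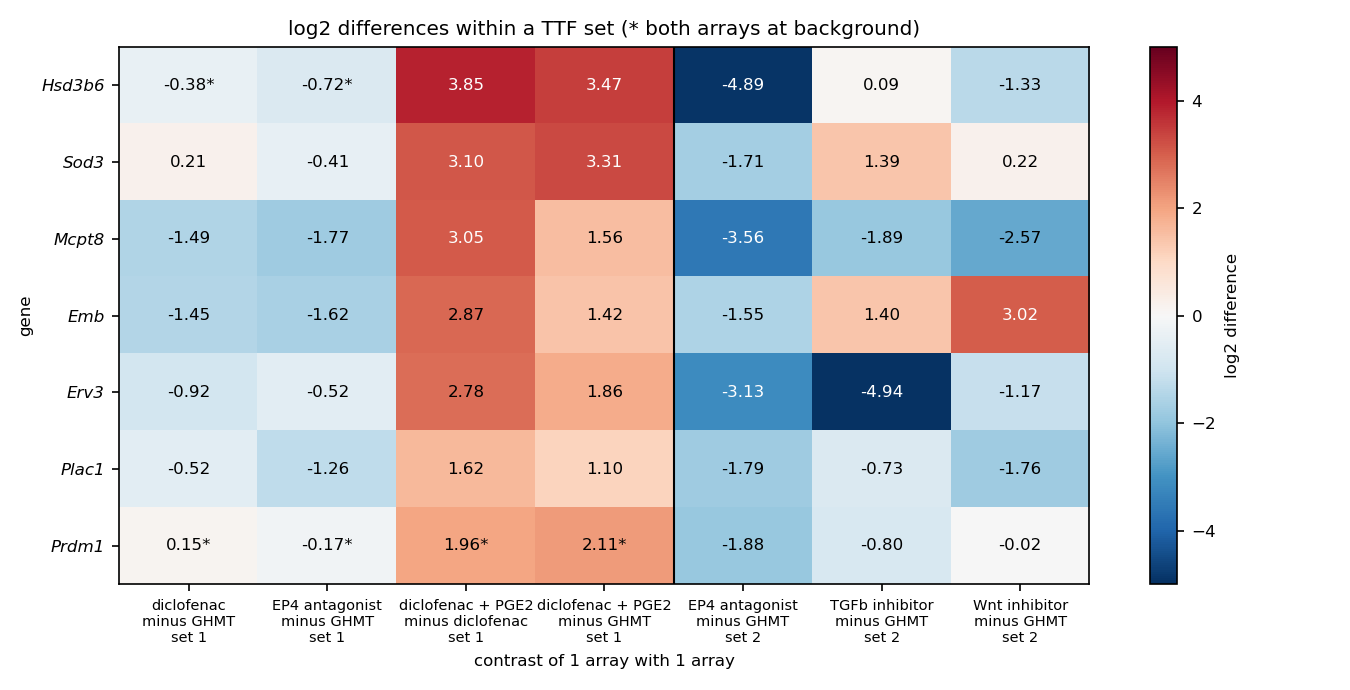
Log2 differences (colour and printed value) of the 7 genes (rows) in 7 contrasts of 1 array with 1 array within a TTF set (columns), set 1 left and set 2 right of the black line; an asterisk marks a difference between arrays that are both at background. All 7 genes are red where PGE2 was added and blue with the EP4 antagonist of set 2, and the columns of the TGFb and Wnt inhibitors hold both colours.

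The next counts are of the contrasts that chose the genes, where a high value with PGE2 was asked of each gene and a low value in only some of the inhibitor arrays. With PGE2 added to diclofenac, 7 of 7 were at least 2-fold above diclofenac (median difference 2.87), where 0.847% of all clusters were. Against GHMT of set 1 all 7 were at least 2-fold higher too (median 1.86, lowest 1.10 for Plac1), where 0.892% of all clusters were. Without Prdm1, which was at background in these arrays, both counts are 6 of 6. With the EP4 antagonist of set 2, 7 of 7 were at least 2-fold under GHMT (median -1.88), where 1.45% of all clusters were. These counts use the log2 values as deposited: for Hsd3b6, Plac1 and Prdm1 the EP4 antagonist array of set 2 was at background, and the bound for Plac1 was 1.44-fold.

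In set 1, Hsd3b6 and Prdm1 were at background with GHMT, diclofenac and the EP4 antagonist, so their differences have no measured sign. The other 5 were all under GHMT with the EP4 antagonist, and Mcpt8, Emb and Plac1 were at least 2-fold lower, where 0.784% of all clusters were. With diclofenac, 4 of these 5 were under GHMT, and Mcpt8 and Emb were at least 2-fold lower, where 0.766% of all clusters were. The lower array was at background for Mcpt8 in both contrasts and for Plac1 with the EP4 antagonist, which leaves Emb as the 1 gene with a 2-fold difference between levels above background. Sod3 was the exception (0.21, unresolved). Genes at least 2-fold under GHMT with the EP4 antagonist in both sets and at least 2-fold above diclofenac with PGE2 numbered 16, of which 3 were among the 7, namely Mcpt8, Emb and Plac1. Hsd3b6 (-0.72), Erv3 (-0.52), Sod3 (-0.41) and Prdm1 (-0.17) missed this count on the set 1 difference between EP4 antagonist and GHMT, which for Hsd3b6 and Prdm1 lies between background values. Any size of difference in these directions was found in 2951 genes.

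The EP4 antagonist against GHMT is the only comparison with replicates (n = 2 each). The mean of the within-set differences was -1.59 ± 0.05 for Emb, -1.53 ± 0.37 for Plac1, -1.06 ± 0.92 for Sod3 and -1.03 ± 1.21 for Prdm1 (SD, n = 2 sets). It was -2.67 ± 1.27 for Mcpt8, -1.83 ± 1.85 for Erv3 and -2.81 ± 2.95 for Hsd3b6. For Erv3, with all 4 arrays above background, the spread between the sets exceeded the mean. For Hsd3b6 and Prdm1 both set 1 arrays and the EP4 antagonist array of set 2 were at background, for Plac1 both EP4 antagonist arrays and for Mcpt8 that of set 1, so their means and SDs rest in part on values under the detection level. Over all 22206 clusters, limma called 0 (0%) at an adjusted p under 0.05, with 144 under 0.05 unadjusted. With the TTF set as a block it called 0 as well (1243 unadjusted). No p is given for the 7 genes, because this contrast helped to choose them.

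The sets differed in the GHMT cultures themselves, a comparison of 1 array with 1 that the choice of genes did not use, although its GHMT arrays also enter the contrasts that did. Mcpt8 was 67.2-fold higher in GHMT of set 2 than in GHMT of set 1, and Sod3 11.3-fold. Hsd3b6 was at least 12.0-fold, Erv3 6.82-fold and Prdm1 at least 2.75-fold higher. Plac1 differed by 0.23, which is unresolved, and Emb was 2.58-fold lower. In all, 5 of 7 were at least 2-fold higher in set 2, where 6.47% of all clusters were, and 1 of 7 at least 2-fold lower, where 7.22% were. Between the EP4 antagonist arrays of the sets, 3 of 7 were at least 2-fold higher in set 2 (Mcpt8, Sod3, and Prdm1 with both arrays at background), where 6.14% of all clusters were, and 1 of 7 at least 2-fold lower (Emb, 2.46-fold), where 6.48% were. Hsd3b6 was at background in both of these arrays.

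Ptgs2 and Ptges, which take part in making PGE2, differed between the sets as well. Ptgs2, which encodes cyclooxygenase-2, was at 9.72 with GHMT of set 1 and at 12.86 with GHMT of set 2. Ptges, a PGE synthase, was at 7.45 and 9.99 in the same arrays. Hpgd, which inactivates prostaglandins, was at 5.60, a background value, and 8.35 in these arrays. Among all clusters, 6.47% were at least 2-fold higher in GHMT of set 2. Ptgs2, Ptges and Hpgd were set side by side here after their values were seen. The PGE2 content of the cultures is not among the data. The part of Ptgs2, Ptges and Hpgd in the set difference of the 7 genes was not tested. TTF set and culture cannot be told apart in this comparison.

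The inhibitors of TGFb and Wnt signalling gave the only values that the choice of genes left out, and here the 7 genes parted. Both contrasts share the GHMT array of set 2 with the EP4 antagonist contrast. With the TGFb inhibitor, Sod3 (2.62-fold) and Emb (2.64-fold) were higher than with GHMT, and Mcpt8 (3.71-fold) and Erv3 (30.7-fold) were lower. The Erv3 difference of -4.94 was the lowest of all 22206 clusters in that contrast. Hsd3b6 differed by 0.09, which is unresolved, Prdm1 was at -0.80, and Plac1 was at least 1.31-fold lower. Thus 2 of 7 were at least 2-fold higher, where 2.84% of all clusters were, and 2 of 7 at least 2-fold lower, where 2.52% were.

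With the Wnt inhibitor, Emb was 8.11-fold higher than with GHMT. Mcpt8 was 5.94-fold, Hsd3b6 2.51-fold and Erv3 2.25-fold lower, and Plac1 was at least 1.34-fold lower (log2 difference -1.76). Sod3 (0.22) and Prdm1 (-0.02) were unresolved from GHMT. Thus 1 of 7 was at least 2-fold higher, where 2.53% of all clusters were, and 4 of 7 at least 2-fold lower on the log2 scale, where 1.57% were. Only Mcpt8 and Erv3 were at least 2-fold lower with each of the EP4 antagonist, the TGFb inhibitor and the Wnt inhibitor of set 2. Only Emb was at least 2-fold higher with both of the latter. All of these differences are from the same GHMT array, so they are not independent. That array held the highest value of all 8 for Mcpt8 (12.26) and Erv3 (12.45). The share of all clusters with such overlaps was not counted.

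**Figure D3:**
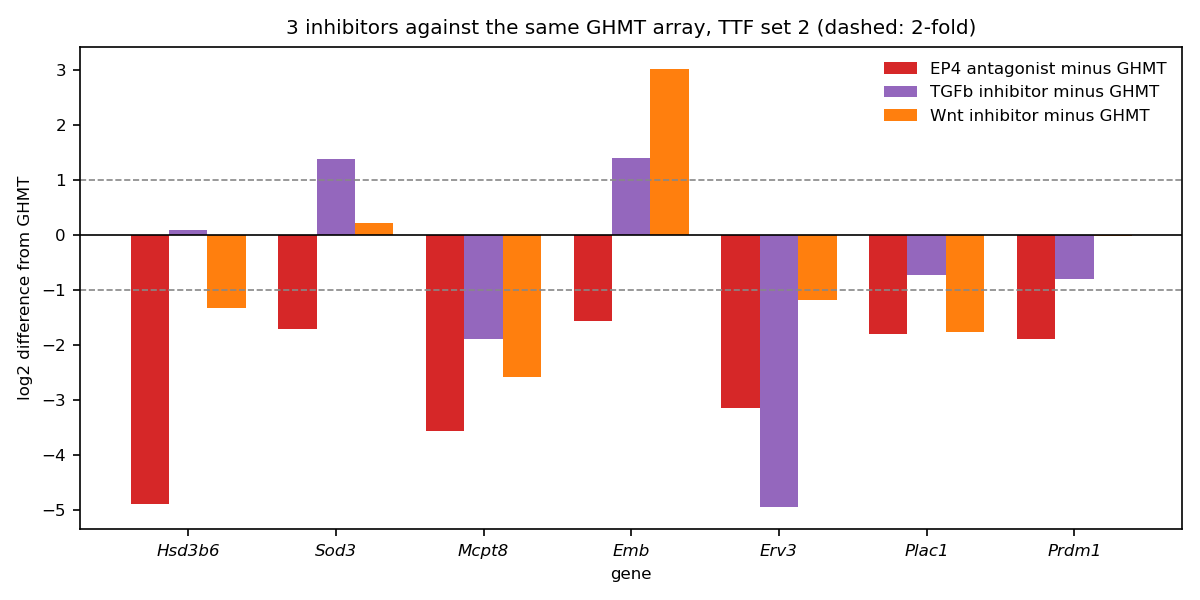
Log2 difference from the GHMT array of TTF set 2 (vertical axis) of the 7 genes with the EP4 antagonist, the TGFb inhibitor and the Wnt inhibitor, 1 array each, so bars have no error; dashed lines mark 2-fold. The EP4 antagonist bars are all negative, from -4.89 to -1.55, while those of the TGFb and Wnt inhibitors lie on both sides of 0, with Erv3 at -4.94 for the former and Emb at 3.02 for the latter.

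The order of the levels within a set was resolved only in part, since values at background have no order and steps under 0.39 are unresolved. The yardstick is a pooled SD and each level is 1 array, so a step beyond it is not a tested order. In set 1 the array with diclofenac plus PGE2 stood above the other 3 for the 6 genes that it showed above background. The step between the EP4 antagonist and diclofenac arrays was unresolved for Emb (0.17) and lay between background values for Hsd3b6, Mcpt8, Plac1 and Prdm1. The step between GHMT and diclofenac was unresolved for Sod3 (0.21). For Mcpt8 in set 2 the 4 levels were all above background and more than 0.39 apart, in the order EP4 antagonist, Wnt inhibitor, TGFb inhibitor and GHMT. The smaller steps were 0.99 and 0.68. Between the sets, the EP4 antagonist difference of Mcpt8 had a larger SD of 1.27, in part from a background value. Of the 42 steps between neighbouring levels, 11 were under 0.39 and so unresolved. Examples are GHMT against the TGFb inhibitor for Hsd3b6 and GHMT against the Wnt inhibitor for Sod3 and Prdm1. Further steps were larger but lay between background values, and so have no order either. They were 0.74 in set 1 and 1.03 in set 2 for Plac1, and 1.96 in set 1 for Prdm1.

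Correlations between the genes describe this too. Over the 4 arrays of set 1 the 21 pairs correlated at 0.86 to 1.00; these arrays were used to choose the genes. Over the 4 arrays of set 2 they ran from -0.24, for Sod3 with Erv3, to 0.95, for Mcpt8 with Plac1, with a median of 0.59. The GHMT and EP4 antagonist arrays of set 2 helped to choose the genes as well, so these values are not free of the choice. Pairs share the same arrays, and 4 points carry little weight.

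The genes most like the mean of the 7 were sought among 2475 other genes by Pearson correlation over the 8 arrays, each gene centred on the mean of its set. The closest was Pde10a, a phosphodiesterase that degrades cyclic nucleotides, with r = 0.97. In set 1 it was at 8.57 with GHMT, 8.24 with diclofenac, 7.95 with the EP4 antagonist and 9.77 with diclofenac plus PGE2, and in set 2 it was at 9.71 with GHMT and 8.04 with the EP4 antagonist. Acsl4, an acyl-CoA synthetase that prefers arachidonic acid, followed with 0.97, and Bcl6, a transcriptional repressor, with 0.95. Chl1, a neural adhesion molecule, had 0.94, and Ap1s3, an adaptor subunit of vesicle coats, Ptgfr, the receptor of prostaglandin F2-alpha, Il1r1, the interleukin-1 receptor, and the complement component C7 had 0.93 each. In all 8 of these genes the PGE2 array was the highest of set 1. In all but C7, where it shared background with the TGFb inhibitor, the EP4 antagonist array was the lowest of set 2. Such extremes follow in large part from the choice, since the genes were picked for likeness to a mean profile with the same extremes.

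**Figure D4:**
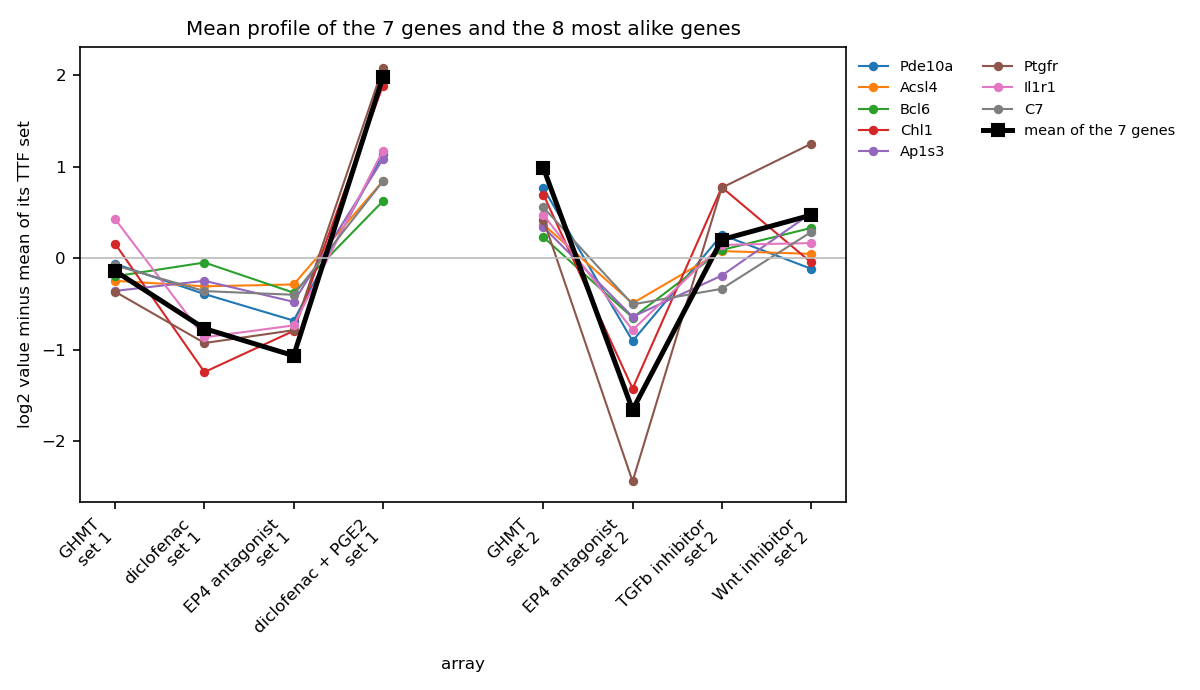
Log2 value minus the mean of the TTF set (vertical axis) in the 8 arrays for the mean of the 7 genes (black squares) and for the 8 genes with the highest correlation to it (coloured circles), 1 array per point. The mean of the 7 genes is at 1.98 with diclofenac plus PGE2 and at -1.66 with the EP4 antagonist of set 2. The coloured lines have their highest set 1 point and their lowest set 2 point in the same arrays. They were picked for likeness to this mean, so the shared extremes follow in large part from the choice.

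Single members had other close genes. Hsd3b6 was most like Pde7b, a phosphodiesterase that degrades cyclic AMP (r = 0.99), Ptpn13, a tyrosine phosphatase (0.96), and Sfrp1, a secreted Wnt antagonist (0.96). Sod3 was most like Mgst1, a membrane glutathione transferase (0.96), Gm4787 (0.96, above background in 1 array), and Ptges (0.95). Mcpt8 was most like Cxcl14, a chemokine (0.98), Wt1, a transcription factor of mesothelium and kidney (0.98, above background in 2 arrays), and Hsph1, a heat shock protein (0.97). These lists share no gene, but each holds only 3 of 2475. Over the 8 arrays, Hsd3b6 correlated with Sod3 at 0.92 and with Mcpt8 at 0.85, and Sod3 with Mcpt8 at 0.70.

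For 20 measured genes of PGE2 signalling, the median difference of PGE2 from diclofenac was 0.53, against 0.01 over all clusters. Of the 20, 7 were at least 2-fold above diclofenac with PGE2, where 0.847% of all clusters were. They were the receptor gene Ptger4 (1.10), Ptges (1.18), Hpgd, which inactivates prostaglandins (1.29), the phosphodiesterase Pde4b (3.40), and Nr4a1, Nr4a2 and Nr4a3, nuclear receptors known as immediate targets of cyclic AMP (1.25 for Nr4a2 and 2.22 for Nr4a3). With the EP4 antagonist of set 2, Pde4b (-3.43), Nr4a2 (-1.71), Nr4a3 (-1.31) and Fos were at least 2-fold lower, where 1.45% of all clusters were. Hpgd (1.25) and Prkar2b were at least 2-fold higher there. In either direction, 609 of 22206 clusters were 2-fold apart in that contrast. In set 1, Pde4b alone of the list was at least 2-fold lower with diclofenac (-2.44), where 0.766% of all clusters were. It alone was so with the EP4 antagonist of set 1 as well (0.784% of all clusters), where it was at background. Nr4a3 and Hpgd were at background with diclofenac, so their differences with PGE2 rest on a value under the detection level. Ptger4 itself was above background in all 8 arrays, from 6.34 to 7.69, and Ptger2, the other receptor that raises cyclic AMP, was at background in all 8. Pde4b differed from GHMT of set 2 by -0.50 with the TGFb inhibitor and 0.30 with the Wnt inhibitor.

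Other genes of the members' own pathways were in large part not measurable. Of 18 measured genes of steroid synthesis, 13 were at background in all 8 arrays, including Star, the cholesterol carrier of steroid-making cells, and Cyp11a1, which starts the pathway. None of the 18 was 2-fold apart in any contrast of set 1 or with the EP4 antagonist of set 2. Over all 22206 clusters, 355 to 609 were in these contrasts, so few or none of 18 genes would be counted. The medians of the 18 there lay between -0.19 and 0.10. Hsd11b1, which activates glucocorticoids, was at 5.77, a background value, with GHMT and 7.72 with the TGFb inhibitor in set 2.

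Of 21 measured genes that remove superoxide and peroxide, none was at least 2-fold apart from diclofenac with PGE2, where 479 of 22206 clusters were. At that share few or none of 21 genes would be counted. Sod1, the cytosolic superoxide dismutase, lay between 12.06 and 12.17 in set 1 and between 12.67 and 13.04 in set 2. Sod2, the mitochondrial one, lay between 9.60 and 9.81 and between 10.32 and 10.83. In set 2, Nqo1, a quinone reductase, was higher than GHMT with the EP4 antagonist (1.51), the TGFb inhibitor (1.75) and the Wnt inhibitor (1.02), and Hmox1, heme oxygenase-1, was higher with the EP4 antagonist (1.05). In set 1, Gpx3, a secreted glutathione peroxidase, was higher than GHMT with diclofenac (1.41) and the EP4 antagonist (1.15).

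Of 12 measured granule proteases encoded beside or near Mcpt8, 9 were at background in all 8 arrays. Mcpt4, a chymase and the nearest measured neighbour of Mcpt8 on one side, was above background in set 1 with diclofenac and the EP4 antagonist and not in the other 2 arrays. It was at 5.58 with GHMT, 6.59 with diclofenac, 6.74 with the EP4 antagonist and 4.93 with diclofenac plus PGE2. In set 2 it was at 6.66 with GHMT, 7.05 with the EP4 antagonist, 8.67 with the TGFb inhibitor and 7.13 with the Wnt inhibitor. Cma2 was at 6.78 with GHMT and 5.11 with the EP4 antagonist of set 2, the latter at background.

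Of the relatives of Emb, Bsg (basigin) lay between 17.85 and 18.41 and Nptn (neuroplastin) between 16.40 and 16.84 over all 8 arrays. Slc16a1, a monocarboxylate transporter, was at -1.19 with diclofenac and 0.88 with PGE2 against diclofenac. Slc16a3, another of the transporters, was at -1.99 with the TGFb inhibitor. Of 14 measured placental genes, 12 were at background in all 8 arrays. Peg10, an imprinted gene derived from a retrotransposon, was above background in all 8. In set 1 it was at 13.76 with GHMT, 14.13 with diclofenac, 14.12 with the EP4 antagonist and 15.48 with diclofenac plus PGE2. Neither diclofenac nor the EP4 antagonist of set 1 was thus under GHMT. In set 2 it was at 16.22 with GHMT, 14.74 with the EP4 antagonist, 16.21 with the TGFb inhibitor and 12.69 with the Wnt inhibitor. Prl2c2, a proliferin gene, was at background in all arrays of set 1 and at 7.53 to 10.60 in set 2. Of 18 Prdm1 relatives and genes Prdm1 is known to repress, 11 were at background throughout. None of the 18 was 2-fold apart in any contrast of set 1 or with the EP4 antagonist of set 2. At the share of all clusters in these contrasts (355 to 609 of 22206), few or none would be.

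The genes next to the 7 on their chromosomes were followed as well, 2 measured protein-coding genes on each side, 28 in all, of which 10 were at background in all 8 arrays. None was at least 2-fold higher with PGE2 than with diclofenac, where 0.847% of all clusters were. None was at least 2-fold lower than GHMT with diclofenac, where 0.766% of all clusters were. The same held with the EP4 antagonist of set 1 (0.784%) and of set 2 (1.45%). At such shares few or none of 28 genes would be counted. Higher than GHMT by at least 2-fold were Mcpt4 and Popdc3 with diclofenac and with the EP4 antagonist of set 1. With the EP4 antagonist of set 2, Parp8 and, between background values, Ppargc1a were. In either direction, 402 of 22206 clusters were 2-fold apart from GHMT with diclofenac. With the EP4 antagonist, 355 were in set 1 and 609 in set 2. The medians of the 28 lay between -0.17 and 0.11 in these contrasts. Hsd3b6 lies in a cluster of related genes: Hsd3b2 and Hsd3b3 on one side were at background in all arrays, and Hsd3b1 on the other was above it in 1, at 5.98 with diclofenac plus PGE2. Probe sequences were not used here, so signal shared between Hsd3b6 and its close relatives was not tested. Ppargc1a, a neighbour of Sod3 that encodes a coactivator of mitochondrial genes, was at 7.24 with diclofenac and 5.64 with diclofenac plus PGE2, the latter at background.

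**Figure D5:**
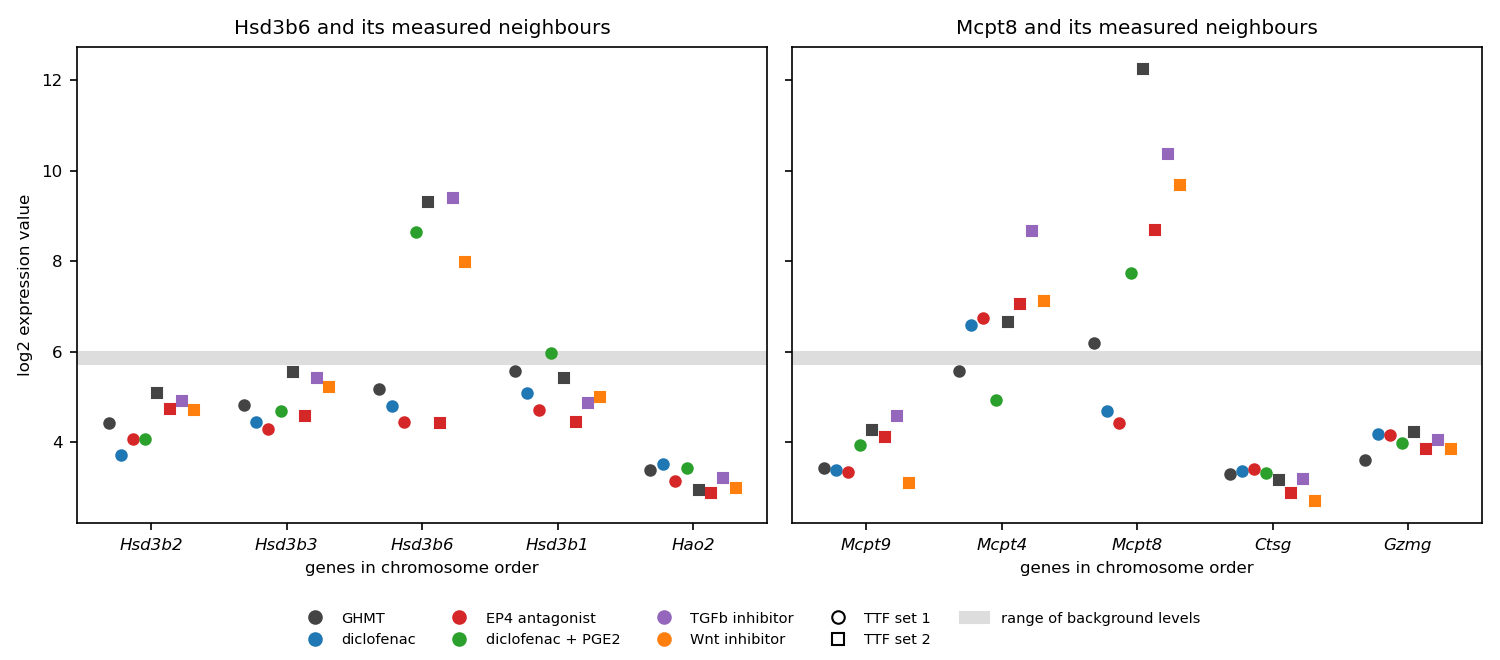
Log2 expression value (vertical axis) in the 8 arrays (circles TTF set 1, squares TTF set 2, colour by culture) of Hsd3b6 and Mcpt8 and the 2 measured protein-coding genes on each side, in chromosome order and not to scale; the grey band spans the background levels of the arrays. Hsd3b6 and Mcpt8 reach 9.40 and 12.26, and of their 8 neighbours Mcpt4 is above background in 6 arrays, Hsd3b1 in 1 and the others in none.

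Promoter sequences, from 250 bases before to 50 after the start of transcription, were looked up in RefSeq (GRCm38.p6) and matched 6 of the 7 genes, all but Sod3, with 7 starts. They were searched on both strands for the full cyclic AMP response element TGACGTCA, its core TGACG, which the full element contains, and the AP-1 type element TGANTCA. Of all 32851 promoters of that length, 1.79% held TGACGTCA, 20.8% held TGACG and 7.81% held TGANTCA. Among the 7 promoters, Prdm1 held 1 TGACG (as CGTCA, on the other strand, from base -38) and 1 TGANTCA (as TGAATCA, from base -48), and the other 6 held none of the motifs. The Prdm1 promoter is shown with these matches in capitals, and those of Hsd3b6 and Mcpt8 are shown as the genes with the largest EP4 antagonist differences of set 2. A match is a description of the letters, and no match says only that these letters are not in this window.
Prdm1, chr10:44458699-44458998, minus strand: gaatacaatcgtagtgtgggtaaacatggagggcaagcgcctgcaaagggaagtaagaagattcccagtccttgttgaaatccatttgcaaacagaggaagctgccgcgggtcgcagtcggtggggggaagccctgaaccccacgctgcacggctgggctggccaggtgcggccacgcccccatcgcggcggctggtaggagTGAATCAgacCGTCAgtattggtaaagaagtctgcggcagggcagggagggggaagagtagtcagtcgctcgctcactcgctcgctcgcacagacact
Hsd3b6, chr3:98814394-98814693, minus strand: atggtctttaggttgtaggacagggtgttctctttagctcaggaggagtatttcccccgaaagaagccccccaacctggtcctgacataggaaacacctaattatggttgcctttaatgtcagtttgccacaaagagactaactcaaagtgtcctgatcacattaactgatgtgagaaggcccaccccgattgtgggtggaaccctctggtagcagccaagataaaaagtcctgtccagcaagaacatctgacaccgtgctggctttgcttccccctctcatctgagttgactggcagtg
Mcpt8, chr14:56085148-56085447, minus strand: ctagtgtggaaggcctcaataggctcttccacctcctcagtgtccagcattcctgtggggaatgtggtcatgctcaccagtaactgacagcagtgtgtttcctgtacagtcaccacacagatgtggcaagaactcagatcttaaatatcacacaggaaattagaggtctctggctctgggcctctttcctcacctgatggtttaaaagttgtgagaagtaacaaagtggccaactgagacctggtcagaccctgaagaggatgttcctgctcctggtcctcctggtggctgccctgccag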

How the data were processed

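The deposited values are log2 expression values, 1 per probe set and array, that the authors normalized by SST-RMA, a robust multichip average preceded by a single space transformation, per the series' design text, in Affymetrix Expression Console 1.4 per the submitters' processing notes, from Clariom S Mouse arrays. No source used here says if the TTF sets were normalized jointly, or gives a genome build or filters. Of 28846 probe sets, 22206 were transcript clusters, 19572 of them with a gene symbol from the platform annotation. No filter was applied, and for a symbol with several clusters the one with the highest mean was used. The members and lists were chosen with earlier results of these data known. Differences were taken within a TTF set and counted at 2-fold, with Python 3.11.15. The EP4 antagonist was compared with GHMT over all clusters with limma 3.58.1 (R 4.3.3; two-sided p, adjusted by Benjamini-Hochberg), and the fit was tested on simulated data. Named genes were the 7, the 8 most alike by correlation and the 3 most alike each of Hsd3b6, Sod3 and Mcpt8 (above background in an array and spanning at least 1), and of each list its first 2 genes and the 4 with the largest mean absolute difference; genes at least 2-fold apart, genes that the neighbourhood names, and Ptgs2 were added after their values were seen. Nothing in the labels shows that arrays of 1 group came from separate animals, so a p-value covers only the spread between these arrays, which may be technical. Precision is limited by how few arrays there are. Alternatives were other normalizations, thresholds and filters, the TTF set as a block, and leaving out each replicate.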

Additional observations from a re-analysis of the deposited data

How the results depend on the processing

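The 7 genes' differences kept their direction under quantile normalization over 8 arrays, where the largest shift of 56 values was 0.28, under quantile normalization within a set (0.06, 49 values) and under centring on array medians (0.04, 56 values). Leaving out a replicate leaves the EP4 antagonist difference of the other set alone, which moved Hsd3b6, Sod3, Mcpt8, Erv3 and Prdm1 by more than 0.39: Hsd3b6 then ran from -4.89 to -0.72, Sod3 from -1.71 to -0.41, Mcpt8 from -3.56 to -1.77, Erv3 from -3.13 to -0.52 and Prdm1 from -1.88 to -0.17. The set 1 values of Hsd3b6 and Prdm1 lie between background values. Without GHMT replicate 2 or EP4 antagonist replicate 2 the smaller value holds. Over all clusters limma called 0 for the EP4 antagonist against GHMT in the fit without a block, and 0 with the TTF set as a replicate block, with a trend and robust prior, after quantile normalization and among the 10707 clusters above background. Leaving out 1 replicate, which compares groups of different set make-up with 1 residual degree of freedom, gave 1 to 25 calls (for GHMT, 21 when replicate 1 was left out and 1 when replicate 2 was; for the EP4 antagonist, 25 and 16). The number in the titles goes with the TTFs, and with 2 pairs the deviations of same-numbered arrays from their group means correlated at 0.72 over all clusters; the block changes no member's difference. Counts of members at 2-fold stayed within 1.5 times under each alternative run. The alternative of averaging several clusters of a symbol gave no value, since each of the 7 has 1 cluster. Values at background have no order, and 4 of the 7 genes were at background in 2 to 5 arrays.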
